A study of Homo sapiens with 30 samples.

Results

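SETDB1, its partner ATF7IP, the corepressor TRIM28, the HUSH complex and the heterochromatin proteins that read the same histone mark were followed through 30 libraries of 3 colorectal cancer cell lines. The 10 genes were chosen by symbol, from 24462 symbols in the deposited tables, and all 10 were listed in every table and passed the filter on low counts in every fit: SETDB1, ATF7IP, TRIM28, MPHOSPH8, FAM208A, PPHLN1, MORC2, CBX1, CBX3 and CBX5. RNA was sequenced with a Lexogen Quant-Seq kit, per the labels, in 10 groups of 3 replicates. Caco2, HCT116 and SW480 are established lines from human colorectal cancers.

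In Caco2 the groups were cells with a scrambled hairpin (shScramble) in vehicle, cells with the scrambled hairpin in differentiation medium, and cells with a hairpin against SETDB1 (shSETDB1) sorted as KRT20-negative or KRT20-positive. KRT20 encodes a keratin of mature gut epithelium. In HCT116 and in SW480 the groups were a KRT-negative and a KRT-positive sort of shSETDB1 cells, and unsorted cells. Hairpins were carried by retroviruses, and transduced cells were selected with puromycin, at 2 µg/ml and then 1 µg/ml. Differentiation medium, given from day 3, held 10 µM troglitazone, an agonist of the nuclear receptor PPARG, and 25 nM 1α,25-dihydroxyvitamin D3, which activates the receptor VDR. The labels give neither the medium of the shSETDB1 and unsorted cells, nor the hairpin of the unsorted cells, nor whether replicates were separate cultures, so p-values measure only the spread between these samples.

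SETDB1 trimethylates histone H3 at lysine 9 and thereby silences genes and repeats. ATF7IP binds SETDB1, keeps it in the nucleus and protects it from degradation, while TRIM28 brings SETDB1 to sites bound by KRAB zinc finger proteins. HUSH, built from MPHOSPH8 (MPP8), FAM208A (TASOR) and PPHLN1 (periphilin), recruits SETDB1 and the ATPase MORC2 to long transcribed elements. CBX5, CBX1 and CBX3 encode the heterochromatin proteins HP1 alpha, beta and gamma, which bind the methylated lysine.

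Promoters are shown for the member that rose in shSETDB1 Caco2 cells and for the 3 HP1 genes, which fell against the scramble groups together. Each window runs from 250 bases before to 50 bases after a RefSeq start site (GRCh38.p14), and 9 of the 10 members had an entry. ATF7IP, with 6 start sites listed, is shown at the most upstream one (chr12:14365432-14365731, plus strand), with its 2 CCAAT boxes in capitals (letters CCAAT on either strand, read as ATTGG on the other). The CCAAT box is bound by the factor NF-Y, and 34.6% of 35116 promoter windows held it. CBX5 (chr12:54280073-54280372, minus strand) and CBX3 (chr7:26201193-26201492, plus strand) are shown with the letters of E2F sites in capitals, TTGGCGGG and TTTGGCGC, which stood in 1.2% and 0.652% of windows. CBX1 (chr17:48101137-48101436, minus strand) held neither form and has no capitals, and MPHOSPH8, which did not rise, held 2 CCAAT boxes as ATF7IP does. Capitals mark only the motif chosen for each gene, and other motifs were searched. The ATF7IP window also held 2 GC boxes (GGGCGG) and 2 matches to TTTGAA, the CHR motif, which stood in 15.2% of windows. The CBX5 window held 1 CCAAT box as well, and a FAM208A window (chr3:56683216-56683515, minus strand) held TTGGCGGG. In these windows the CCAAT box thus stood both in the member that rose and in CBX5, which fell, and CBX1 fell without either E2F form. TRIM28, which also fell, had no entry, and the other start sites of genes with several are not shown. E2F factors drive genes of the cell cycle. A match of letters does not show that a factor binds there, and these data do not test it.
ATF7IP: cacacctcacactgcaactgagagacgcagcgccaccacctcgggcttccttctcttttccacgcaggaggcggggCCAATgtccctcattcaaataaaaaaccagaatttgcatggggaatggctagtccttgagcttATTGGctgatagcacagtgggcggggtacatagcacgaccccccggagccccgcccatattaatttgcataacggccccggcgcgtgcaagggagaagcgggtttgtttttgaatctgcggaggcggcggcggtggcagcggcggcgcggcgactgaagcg
CBX5: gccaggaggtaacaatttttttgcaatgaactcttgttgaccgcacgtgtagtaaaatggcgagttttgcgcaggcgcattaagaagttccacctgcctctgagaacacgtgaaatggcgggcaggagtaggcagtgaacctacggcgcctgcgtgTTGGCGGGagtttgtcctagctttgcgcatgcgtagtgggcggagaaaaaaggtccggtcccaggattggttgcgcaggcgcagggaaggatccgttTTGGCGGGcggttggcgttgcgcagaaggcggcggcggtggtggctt
CBX3: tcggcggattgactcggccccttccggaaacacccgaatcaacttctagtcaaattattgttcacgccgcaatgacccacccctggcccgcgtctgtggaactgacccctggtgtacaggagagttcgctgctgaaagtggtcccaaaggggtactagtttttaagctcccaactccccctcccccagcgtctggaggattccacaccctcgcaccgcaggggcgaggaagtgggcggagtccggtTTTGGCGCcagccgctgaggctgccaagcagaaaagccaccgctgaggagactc
CBX1: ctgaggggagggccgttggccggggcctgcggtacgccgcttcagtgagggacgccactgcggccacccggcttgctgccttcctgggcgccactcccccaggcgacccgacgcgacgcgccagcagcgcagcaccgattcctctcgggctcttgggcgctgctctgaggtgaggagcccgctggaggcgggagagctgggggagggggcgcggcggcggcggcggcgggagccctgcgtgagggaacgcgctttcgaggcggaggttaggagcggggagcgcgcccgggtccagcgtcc

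Library totals ran from 5349737 to 10221854 counts, so that 3 counts, the level a count of 0 allows, correspond to 0.260 to 0.621 CPM (counts scaled by library total and by TMM factors over all 30 libraries). Such limits cover counting error only. Replicates of a group differed far more in HCT116 and SW480 than in Caco2: the median over genes of the within-group coefficient of variation (CV) was 8.83% in Caco2, 33.2% in HCT116 and 37.1% in SW480. In HCT116 and SW480, each library was put into a class by the sign of a Spearman correlation. It was that of transcript GC content with the library's deviation from the mean of its line, over genes. In HCT116 the KRT-positive libraries, replicate 1 of the KRT-negative fraction and the first pair of unsorted replicates had a negative sign, the AT class. So had the second replicate of every SW480 group, and the rest form the GC class. Some correlations lay near 0 (0.047 in SW480 and -0.060 in HCT116 KRT-positive replicate 1), and Caco2 libraries were not classed. KRT20 followed the sort in Caco2 (26.7 to 38.8 CPM in the positive and 1.06 to 1.83 in the negative fraction) and in SW480 (44.6 to 74.9 against at most 0.67), but in HCT116 it was counted in 1 of 3 KRT-positive libraries (5.44 CPM). Of 10 colorectal epithelial markers, 9 or 10 were detected in each Caco2 library, 6 or 7 in each HCT116 and 6 to 8 in each SW480 library. CDX1 was at 0 in every HCT116 and SW480 library, VIL1 and CDH17 in every HCT116 library. A list of 10 fibroblast markers summed to 634 CPM in Caco2 KRT20-negative replicate 3 and to 34.0 to 63.3 CPM in the other 11 Caco2 libraries. A gene was called at a false discovery rate of 5% over all genes tested, with edgeR's quasi-likelihood test and Benjamini-Hochberg adjustment. Every adjusted p below is of that kind except where DESeq2 is named. SE is the standard error of a log2 fold change.

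**Figure D1:**
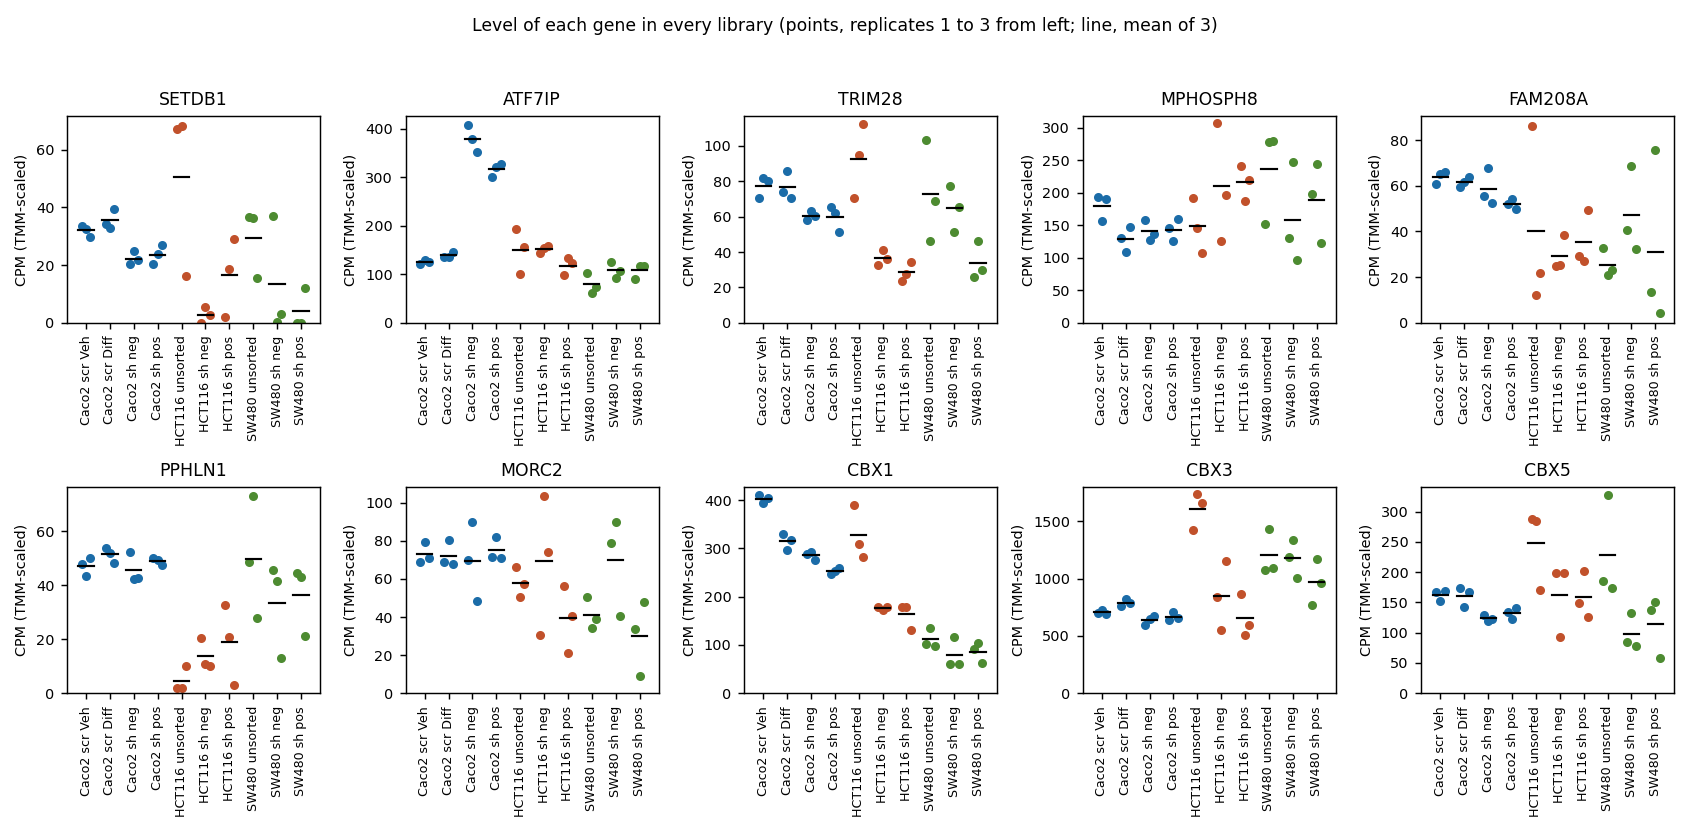
Level of each of the 10 genes (vertical axis, TMM-scaled CPM) in each library of the 10 groups (horizontal axis; scr, scrambled hairpin; sh, SETDB1 hairpin; neg and pos, sorted fractions). Points are libraries in replicate order and lines are means of 3. ATF7IP stands at 299.9 to 409 CPM in the 6 shSETDB1 Caco2 libraries and at or below 194 CPM in all 24 others, and SETDB1 points are far apart within HCT116 and SW480 groups.

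SETDB1 (GRCh38, chromosome 1, 150926263 to 150964744, plus strand) is the hairpin's target and checks the labels. In Caco2 it stood at 33.6, 32.5 and 29.8 CPM in vehicle and at 34.2, 33.0 and 39.5 CPM in differentiation medium. In shSETDB1 cells it stood at 20.2, 24.7 and 21.7 CPM in the KRT20-negative and at 20.3, 23.7 and 26.8 CPM in the KRT20-positive fraction. All 6 shSETDB1 libraries lay below all 6 scramble libraries, and 19.9% of all genes had no overlap there. The mean was 1.47-fold lower, and the log2 fold change of the shSETDB1 groups against the scramble groups was -0.55 (SE 0.09, adjusted p = 2.18e-05). In bulk RNA, fewer cells of a type and less RNA per cell cannot be told apart.

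ATF7IP, the member that protects SETDB1 protein, was the only member to rise in shSETDB1 Caco2 cells. Its 6 scramble libraries stood at 122, 129 and 126 CPM in vehicle and 136, 136 and 146 CPM in differentiation medium. KRT20-negative shSETDB1 libraries stood at 409, 379 and 352 CPM, and KRT20-positive ones at 299.9, 322 and 328 CPM. Every shSETDB1 library lay above every scramble library. Against the scramble groups ATF7IP rose 2.63-fold (log2 1.40, SE 0.05, adjusted p = 3.69e-16). Against vehicle alone the fold was 3.03 in the KRT20-negative and 2.52 in the KRT20-positive fraction, and against differentiation medium, which shares those shSETDB1 libraries, it was 2.73 and 2.27.

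Between the fractions, ATF7IP was lower in all 3 KRT20-positive than in all 3 KRT20-negative libraries (log2 -0.25, SE 0.07; 19.9% of all genes did not overlap), with an adjusted p of 0.0599. The labels do not state pairing, but deviations of same-numbered libraries of these fractions correlated weakly (r 0.102 to 0.188). With the number as a block the adjusted p was 0.0238. That block spanned all Caco2 groups, among them pairs that did not meet the rule for pairing given below. Without KRT20-negative replicate 3, the library with the high fibroblast markers, the log2 fold change was -0.30 (adjusted p = 0.00766). No member was called between the fractions in the unblocked fit, against 4.08% of all genes. At an unadjusted p under 0.05 there were 2 members, ATF7IP and CBX1, and DESeq2 called 1, ATF7IP.

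TRIM28, the bridge from zinc finger proteins to SETDB1, stood at 70.6, 82.0 and 80.0 CPM in vehicle and at 74.1, 85.7 and 70.7 CPM in differentiation medium. In shSETDB1 cells the KRT20-negative libraries stood at 58.2, 63.1 and 60.5 CPM and the KRT20-positive ones at 65.4, 62.2 and 51.2 CPM. The groups did not overlap, and TRIM28 fell 1.28-fold (log2 -0.35, SE 0.07, adjusted p = 0.000387).

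Of the HP1 genes, all 3 fell in shSETDB1 Caco2 cells against the scramble groups together, but CBX3 was not called against vehicle alone. CBX1 stood at 410.4, 394 and 404 CPM in vehicle, 329.8, 298 and 318 in differentiation medium, 289, 292 and 276 in the KRT20-negative and 246, 253 and 260.3 in the KRT20-positive fraction. The KRT20-negative fraction was not called against differentiation medium (log2 -0.14, adjusted p = 0.102), nor the KRT20-positive against the KRT20-negative fraction (-0.16, adjusted p = 0.226). Against the scramble groups together, without overlap, CBX1 fell by 0.40 on the log2 scale (SE 0.05, adjusted p = 2.68e-07). CBX5 stood at 167, 153 and 169 CPM in vehicle and 174, 143 and 167 in differentiation medium, against 129, 119.5 and 123 in the KRT20-negative and 135, 123 and 141 in the KRT20-positive fraction. Its 6 shSETDB1 libraries lay below its 6 scramble libraries, and it fell by 0.33 (SE 0.06, adjusted p = 7.91e-05). CBX3 ran from 595 to 706 CPM in the shSETDB1 and from 693 to 820.3 CPM in the scramble libraries, which overlap. It fell by 0.18 (SE 0.05, adjusted p = 0.00332). Its mean was 706 CPM in vehicle, 791 in differentiation medium, 640 in the KRT20-negative and 668 in the KRT20-positive fraction. In the KRT20-positive fraction against vehicle it was called in 0 of 12 alternative fits, DESeq2 among them (log2 -0.10 to -0.03, adjusted p = 0.330 to 0.813). Pseudogenes bear the names of CBX1 (5), CBX3 (9) and CBX5 (1), and how reads shared with such copies were counted is not given in the sources used here.

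The HUSH genes moved little in the same comparison. FAM208A, the scaffold of HUSH, ran from 49.7 to 67.7 CPM in the shSETDB1 and from 59.3 to 65.9 CPM in the scramble libraries, and fell by 0.18 (SE 0.07, adjusted p = 0.0418). That call was lost on leaving out KRT20-negative replicate 1 or 3, KRT20-positive replicate 1 or 3, vehicle replicate 2 or 3, or differentiation medium replicate 2 or 3 (adjusted p = 0.0656 to 0.089), and with library totals in place of TMM factors (adjusted p = 0.106). MPHOSPH8, which binds methylated lysine 9, had a log2 fold change of -0.09 (95% interval -0.26 to 0.08). That value averages over unlike controls: its mean was 180 CPM in vehicle and 129 CPM in differentiation medium. The mean was 141 CPM in the KRT20-negative and 143 CPM in the KRT20-positive fraction. Against vehicle alone MPHOSPH8 was called lower in both fractions, as given below, and the medium of the shSETDB1 cells is not stated. PPHLN1, which binds RNA, had one of -0.05 (-0.20 to 0.11), and MORC2, the ATPase that HUSH recruits, one of 0.00 (-0.25 to 0.25). Against the scramble groups together, these intervals exclude a change of MPHOSPH8 or PPHLN1 the size of that of ATF7IP.

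In all, 1 member rose and 6 fell of 10, while 47.8% of all 13968 genes tested were called in this comparison, 24.7% higher and 23.1% lower. The members' median log2 fold change was -0.18, and that of all genes 0.01. Genes not tied to this pathway fell too: 6 of 8 housekeeping genes were called lower and none higher (median log2 -0.29). An exact two-sided permutation test of mean log2(CPM + 1) over all 924 splits of 6 against 6 libraries, computed for each of the 10 members, gave 0.00216, the smallest p it can give, for SETDB1, ATF7IP, TRIM28, CBX1 and CBX5. The exact permutation p was 0.00649 for CBX3 and 0.0238 for FAM208A, and 0.411 to 0.859 for PPHLN1, MPHOSPH8 and MORC2. Any gene whose shSETDB1 and scramble libraries do not overlap gets that smallest p by construction, and 19.9% of all genes had no overlap. These splits exchange all 12 libraries freely and do not keep replicate numbers together, although some of these groups were taken as paired by number. They also count both sorted fractions, and both media, as replicates of a hairpin, so this p does not measure a spread between independent cultures. A list of 16 mitosis genes moved with the hairpin: 16 of 16 fell (median log2 -0.60), and their summed level was 3381 to 3786 CPM in the shSETDB1 and 5166 to 5695 CPM in the scramble libraries. Its part in the members' changes was not tested.

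**Figure D2:**
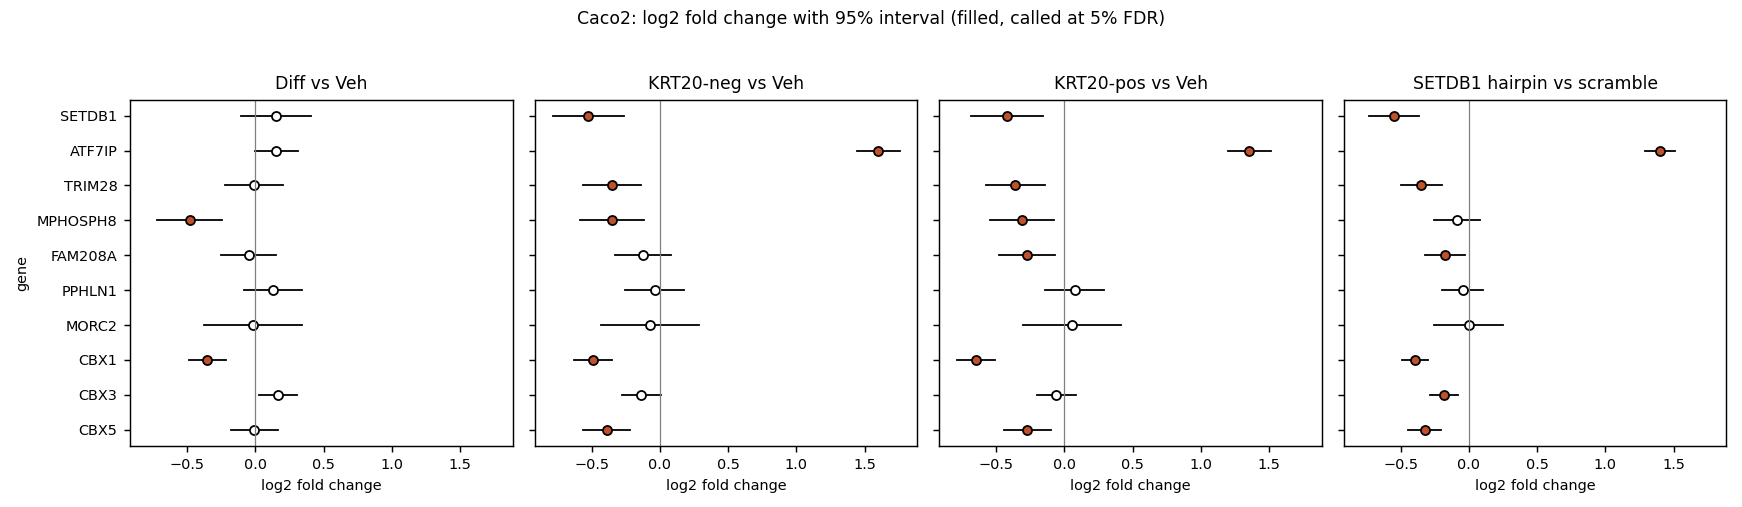
Log2 fold changes (horizontal axis) of the 10 genes (vertical axis) in 4 Caco2 comparisons, with 95% intervals from edgeR and points filled where the gene was called at 5% FDR. ATF7IP is the only filled point to the right of 0 in the 3 shSETDB1 panels (log2 1.60, 1.35 and 1.40), and in differentiation medium MPHOSPH8 and CBX1 alone are filled.

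Each fraction was also set against each scramble group, and these comparisons share libraries. KRT20-negative cells against vehicle had 1 member higher and 5 lower (of all genes 36.2% were called, 18.6% higher and 17.6% lower): ATF7IP, and SETDB1 (log2 -0.52, SE 0.13), TRIM28 (-0.35, SE 0.10), MPHOSPH8 (-0.35, SE 0.11), CBX1 (-0.49, SE 0.07) and CBX5 (-0.39, SE 0.08). The groups of MPHOSPH8 overlapped, and its call (adjusted p = 0.0188) was lost without vehicle replicate 1 or 3 or KRT20-negative replicate 2 or 3 (adjusted p = 0.0561 to 0.0849). CBX3 (log2 -0.14, adjusted p = 0.123) was called there with the replicate block (log2 -0.14, adjusted p = 0.0426) and, with no block, without KRT20-negative replicate 3, the library with the high fibroblast markers (log2 -0.19, adjusted p = 0.0254).

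KRT20-positive cells against vehicle had 1 member higher and 6 lower (of all genes 37.7% were called, 19.3% higher and 18.4% lower). The largest fall was that of CBX1 (-0.65, SE 0.07, adjusted p = 4.24e-08), and SETDB1 fell by 0.42 (SE 0.13, adjusted p = 0.0119). Apart from CBX1, each member that fell lost its call on leaving out 1 library or another. SETDB1 lost it without KRT20-positive replicate 1 (adjusted p = 0.081), TRIM28 without KRT20-positive replicate 3 (0.0637), and CBX5 without KRT20-positive replicate 2 (0.0753) or vehicle replicate 3 (0.0557). FAM208A (log2 -0.28, adjusted p = 0.0307) lost it without any KRT20-positive replicate but the second, without vehicle replicate 2 or 3 (adjusted p = 0.0698 to 0.101), and with library totals only (0.0537). MPHOSPH8 (log2 -0.31, adjusted p = 0.0356) lost it without KRT20-positive replicate 1 or 2 or any vehicle replicate but the second (0.0763 to 0.168).

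Against differentiation medium, KRT20-negative cells had 1 member higher and 4 lower (of all genes 38% were called, 19.6% higher and 18.4% lower). KRT20-positive cells had 1 higher and 5 lower (34.5% of all genes called, 18% higher and 16.6% lower). CBX3 was among those that fell in both, by 0.30 (SE 0.07) and 0.23 (SE 0.07), and MPHOSPH8 in neither. TRIM28 fell by 0.34 and 0.35 but lost both calls without differentiation medium replicate 2 (adjusted p = 0.0854 and 0.0833) and the second without KRT20-positive replicate 3 (0.0875). In the KRT20-positive fraction CBX3 lost its call without KRT20-positive replicate 1 (0.0652), without differentiation medium replicate 2 (0.0565) and with library totals (0.0588). CBX5, lower by 0.26 there, lost it without differentiation medium replicate 1 or 3, without KRT20-positive replicate 2 (0.0684 to 0.0972) and with library totals (0.0579).

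Differentiation medium itself moved 2 of 10 members in scramble cells, both lower, where 20.9% of all genes were called, 10.4% higher and 10.5% lower. MPHOSPH8 stood at 193, 157 and 189.7 CPM in vehicle and 130.3, 109 and 147 CPM in differentiation medium, and fell 1.40-fold (log2 -0.48, SE 0.11, adjusted p = 0.00427). CBX1 fell 1.28-fold (log2 -0.35, SE 0.07, adjusted p = 0.000488). Neither gene's libraries overlapped between the media, which held for 39.1% of all genes. CBX3 was higher in 3 of 3 libraries (log2 0.17, SE 0.07) with an adjusted p of 0.0891. The adjusted p was 0.0249 with the replicate block, where same-numbered libraries were taken as paired. With only these groups in the fit it was 0.0278. SETDB1 (log2 0.15, interval -0.10 to 0.41) and ATF7IP (0.15, -0.01 to 0.31) were not called.

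Some members share their 3′ ends with a gene on the opposite strand, and whether the counting used strand is not given in the sources used here, so reads of the partners may not be told apart. CERS2, which overlaps the SETDB1 end by 4162 bases, had a log2 fold change of 0.01 in shSETDB1 against scramble Caco2 cells (adjusted p = 0.967). In SW480 the mean of CERS2 was 103 CPM in unsorted, 111 in KRT-negative and 29.8 in KRT-positive cells. In HCT116 it was 137, 144 and 115 CPM in the same order. Whether reads of CERS2 bear on the SETDB1 counts was not tested. PRICKLE1, which overlaps the PPHLN1 end by 2959 bases, rose from 1.03, 2.81 and 2.06 CPM in vehicle to 16.2, 19.7 and 16.9 CPM in differentiation medium, while PPHLN1 had a log2 fold change of 0.13 (interval -0.09 to 0.34). CCDC66 at the FAM208A end was not called in any Caco2 comparison. MORC2-AS1, which overlaps the MORC2 end by 7320 bases, ran from 33.9 to 48.0 CPM in Caco2 and had 0 counts in each of the 18 HCT116 and SW480 libraries. Of 83 symbols with an antisense suffix and a mean of at least 10 CPM by library totals in Caco2, 15 (18.1%) had 0 counts in all 18 of those libraries, against 69 of 9339 other symbols (0.739%). The reverse held for 0 of 58 antisense symbols. Whether reads were counted alike in Caco2 and the other lines was not tested, and levels of SETDB1, FAM208A, PPHLN1 and MORC2 between Caco2 and the other lines carry that limit.

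In HCT116, SETDB1 stood at 67.2, 68.2 and 16.4 CPM in unsorted cells, at 0, 5.43 and 2.79 CPM in KRT-negative and at 2.00, 18.5 and 29.1 CPM in KRT-positive shSETDB1 cells. KRT-negative libraries lay below all unsorted ones, and the KRT-positive libraries spread across both. The fall in the KRT-negative fraction was called (log2 -4.19, SE 1.14, adjusted p = 0.0424). It was not called without KRT-negative replicate 3 (adjusted p = 0.161), unsorted replicate 1 (0.136) or unsorted replicate 2 (0.119), nor with no low-count filter (0.19), only these groups in the fit (0.0622) or the GC class as a term (log2 -4.89, 0.113). Within the AT class the values were 0 in KRT-negative and 67.2 and 68.2 in unsorted cells, and within the GC class 5.43 and 2.79 against 16.4. In the KRT-positive fraction SETDB1 had a log2 fold change of -1.59 (SE 1.02, adjusted p = 0.407).

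With all libraries, SETDB1 was called in neither SW480 fraction. Its KRT-positive libraries all lay below the unsorted ones, as for 22.8% of all genes, but its KRT-negative libraries did not. SETDB1 stood at 36.6, 36.5 and 15.4 CPM in unsorted, at 36.9, 0.22 and 3.18 in KRT-negative and at 0, 0 and 12.1 in KRT-positive cells. The library labelled KRT-negative replicate 1 was as high as unsorted cells, which goes against its label. The counts of 0 allow up to 0.304 and 0.324 CPM. The log2 fold change was -1.13 (SE 1.79) in the library set labelled KRT-negative and -2.84 (SE 1.90, adjusted p = 0.523) in the KRT-positive one. Without KRT-positive replicate 3 the latter fell by 11.0 (adjusted p = 0.0496), a fitted value against 2 libraries at 0 that is no measure of size.

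By CV averaged over groups, SETDB1 was the least repeatable member in these lines. Its within-group CV, averaged over groups, was 80.1% in HCT116 and 122% in SW480, above that of 97.5% and 99.6% of the 9490 and 9454 genes with at least 10 CPM, and 10.0% in Caco2, above 61.0% of 9522. PPHLN1 followed in HCT116 (75.0%) and FAM208A in SW480 (63.3%). ATF7IP (17.1% and 18.6%) and, in HCT116, CBX1 (11.9%) were among the most repeatable. The SETDB1 average includes shSETDB1 groups at low level: KRT-negative HCT116 cells (mean 2.74 CPM, CV 99.1%) and KRT-positive SW480 cells (4.04 CPM, 173%). In unsorted HCT116 and SW480 cells the CV of SETDB1 was 58.6% and 41.3%, below that of PPHLN1 (105% and 45.3%). FAM208A shows the spread: unsorted HCT116 cells stood at 86.4, 12.04 and 21.7 CPM, and KRT-positive SW480 cells at 13.6, 75.7 and 4.17 CPM.

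**Figure D3:**
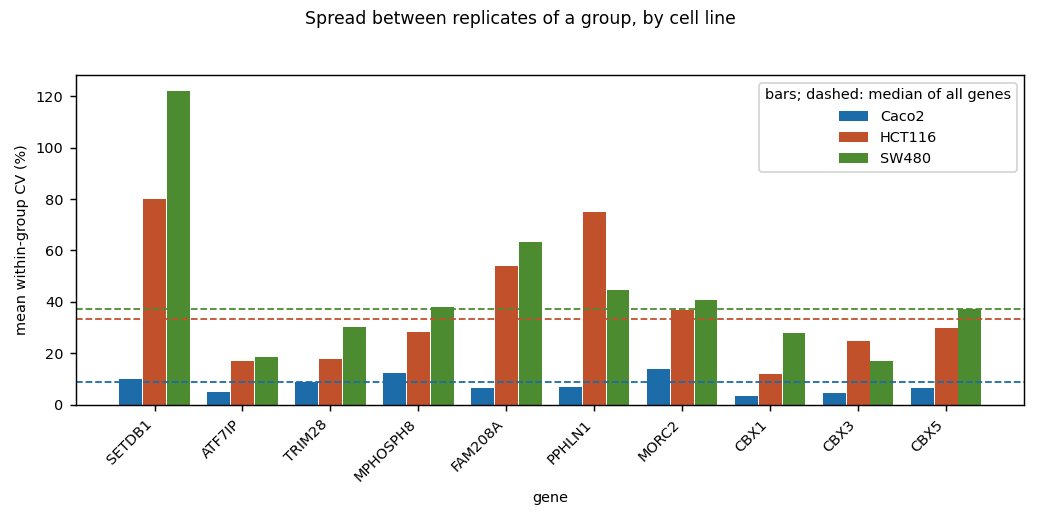
Mean within-group CV (vertical axis, percent, 3 replicates a group) of the 10 genes (horizontal axis) in each cell line, with dashed lines at the median of all genes with at least 10 CPM. SETDB1 reaches 80.1% in HCT116 and 122% in SW480, against medians of 33.2% and 37.1%.

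ATF7IP did not separate the groups of HCT116 or SW480. In HCT116 it stood at 194, 99.9 and 157 CPM in unsorted, 144, 154 and 158 in KRT-negative and 98.0, 133 and 122 in KRT-positive cells. The log2 fold change against unsorted cells was 0.04 (95% interval -0.55 to 0.63) in the KRT-negative and -0.32 (-0.91 to 0.28) in the KRT-positive fraction. In SW480 it stood at 103, 61.2 and 73.0 CPM in unsorted, 125, 92.7 and 108 in KRT-negative and 91.0, 116 and 117 in KRT-positive cells, with log2 fold changes of 0.47 (-0.17 to 1.11) and 0.50 (-0.14 to 1.14). Without the library labelled KRT-negative replicate 1, whose SETDB1 level goes against its label, the first was 0.36 (SE 0.35). All 4 intervals end below the rise of 1.40 seen in Caco2. The Caco2 controls carried a scrambled hairpin in a stated medium. For the unsorted controls the labels give neither hairpin nor medium, so the controls of the lines may not be alike. The difference between lines itself was not tested.

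TRIM28 fell in both HCT116 fractions. It stood at 70.6, 94.8 and 112 CPM in unsorted, 32.6, 41.0 and 36.1 in KRT-negative and 23.8, 27.5 and 34.3 in KRT-positive cells, with no overlap of unsorted cells and either fraction, as for 24.3% and 30.4% of all genes. The mean was 2.53-fold lower in KRT-negative (log2 -1.31, SE 0.34, adjusted p = 0.0362) and 3.25-fold lower in KRT-positive cells (log2 -1.66, SE 0.35, adjusted p = 0.00592). CBX1 stood at 389.6, 309 and 283 CPM in unsorted, 179, 173 and 179 in KRT-negative and 178, 179 and 132 in KRT-positive cells, and fell by 0.86 (SE 0.23, adjusted p = 0.0432) and 0.97 (SE 0.23, adjusted p = 0.0146). CBX3 stood at 1424, 1742 and 1662 CPM in unsorted, 844, 555 and 1153 in KRT-negative and 866, 510.4 and 593 in KRT-positive cells. It fell by 1.26 (SE 0.26, adjusted p = 0.00526) in the KRT-positive fraction, and in the KRT-negative one its log2 fold change of -0.89 had an adjusted p of 0.0563.

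In HCT116, 3 of 10 members were thus called lower in the KRT-negative fraction (5.26% of 13279 genes called, 2.82% higher and 2.44% lower) and 3 in the KRT-positive fraction (9.28%, 4.26% higher and 5.02% lower), and none higher. The 3 of the KRT-negative fraction, SETDB1, TRIM28 and CBX1, are not firm. TRIM28 and CBX1 each lost the call on leaving out 1 of several libraries: without KRT-negative replicate 1, 2 or 3 or unsorted replicate 1, 2 or 3 for TRIM28 (adjusted p = 0.0525 to 0.119), and without KRT-negative replicate 1, 2 or 3 or unsorted replicate 1 or 2 for CBX1 (0.0888 to 0.199). With only these groups in the fit they had 0.0506 and 0.0713, and with library totals CBX1 had 0.0539. Under DESeq2, library totals, no filter, the replicate block and the GC class as a term, CBX3 was called as well (0.00722 to 0.0472), and it was called without KRT-negative replicate 3 (0.0341). In the KRT-positive fraction CBX1 lost the call without KRT-positive replicate 3 (0.0893) or unsorted replicate 1 (0.0775) and with library totals (0.0534). TRIM28 and CBX3 kept theirs in all 13 alternatives. Mitosis genes moved here too: 11 and 14 of 16 fell, and their sum was 680 to 1023 CPM in the fractions and 3476 to 4309 CPM in unsorted cells. Between the fractions edgeR called 0 members (0.55% of all genes), with 1 at an unadjusted p under 0.05 and 0 under DESeq2.

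In SW480, edgeR called 0 of 10 members in either fraction against unsorted cells (2.12% and 3.47% of 13252 genes called) and 0 between the fractions (0.445%). At an unadjusted p under 0.05 there were 1, 2 and 2, and DESeq2 called 0 in each, giving SETDB1 no adjusted p. CBX5 stood at 185, 328 and 174 CPM in unsorted, 84.1, 132 and 77.5 in KRT-negative and 138, 150.3 and 57.4 in KRT-positive cells, so that all fraction libraries lay below all unsorted ones. Groups did not overlap for 24.5% and 22.8% of all genes. Its log2 fold change was -1.21 (SE 0.39, adjusted p = 0.153) and -0.94 (SE 0.38, adjusted p = 0.224). With the replicate block these had adjusted p of 0.0232 and 0.0462, and with the GC class as a term the first had 0.0308. Same-numbered SW480 libraries did not meet the rule for pairing (r 0.016 to 0.222). Replicate 2 alone formed the AT class in each SW480 group, so the block also takes up the GC class. The block and the GC class term are thus not separate checks. Without the library labelled KRT-negative replicate 1 the log2 fold change in the KRT-negative fraction was -1.10 (SE 0.45, adjusted p = 0.414). TRIM28 in the KRT-positive fraction stood at 26.02, 46.2 and 30.01 CPM, against 104, 46.1 and 68.8 in unsorted cells (log2 -1.05, SE 0.41, adjusted p = 0.202).

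**Figure D4:**
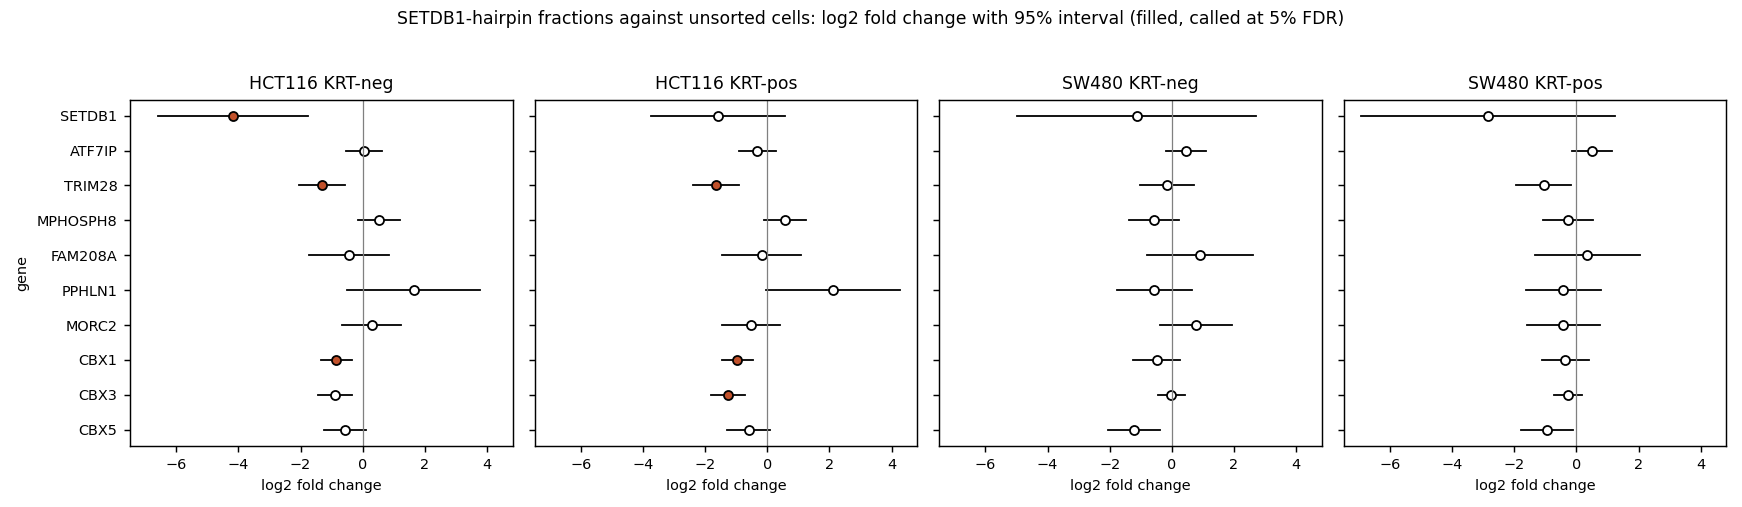
Log2 fold changes (horizontal axis) of the 10 genes (vertical axis) in SETDB1-hairpin fractions against unsorted cells of HCT116 and SW480, with 95% intervals from edgeR and points filled where called at 5% FDR. TRIM28 and CBX1 are filled in both HCT116 panels, no gene is filled in SW480, and SETDB1 has the widest interval in 3 of 4 panels.

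No difference in response between the lines was called for any member: edgeR called 0 of 10 interaction terms of HCT116 against SW480 (1.03% and 1.08% of 14851 genes called), with 2 at an unadjusted p under 0.05 in each and 0 called by DESeq2. For CBX3 the difference in log2 fold change, HCT116 minus SW480, was -0.89 (95% interval -1.59 to -0.19, adjusted p = 0.282) in the KRT-negative and -0.97 (-1.67 to -0.27, adjusted p = 0.202) in the KRT-positive fraction. A p that misses the threshold does not show that the lines respond alike. With the GC class as a term MPHOSPH8 was called in the KRT-negative fraction (difference 1.39, adjusted p = 0.0466).

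Levels also differed between the lines without sorting. In HCT116 unsorted cells PPHLN1 was at 1.81, 1.80 and 10.1 CPM, against 48.7, 72.9 and 27.9 CPM in SW480 unsorted and 47.8, 43.3 and 50.2 CPM in Caco2 vehicle cells. It was lower in HCT116 than in SW480 (log2 -3.48, SE 0.68, adjusted p = 0.000499) and than in Caco2 (-3.43, SE 0.68, adjusted p = 0.000332). CBX1 descended from Caco2 vehicle to HCT116 to SW480 unsorted cells, the last at 103, 136 and 98.8 CPM, and the first of these neighbours did not differ beyond their spread (log2 -0.33, interval -0.75 to 0.10) while the second did (1.55 higher in HCT116, SE 0.21, adjusted p = 6.44e-06). CBX3 was higher in HCT116 (1.16, SE 0.20) and SW480 (0.74, SE 0.20) than in Caco2 vehicle cells. ATF7IP was lower in SW480 than in HCT116 by 0.93 (SE 0.21, adjusted p = 0.00176, or 0.0902 with only these groups in the fit) with overlapping libraries, and lower than in Caco2 (log2 -0.70, SE 0.21, adjusted p = 0.0104, or 0.0618 without SW480 unsorted replicate 2 and 0.0600 with only these groups in the fit). In that last fit FAM208A (log2 -1.30, adjusted p = 0.00553) and MORC2 (-0.80, adjusted p = 0.0216) were called lower in SW480 than in Caco2, which they were not with all libraries. FAM208A was called lower in HCT116 than in Caco2 vehicle cells only without HCT116 unsorted replicate 1 (log2 -1.92, adjusted p = 0.0368). In all, 3 members were called between HCT116 and SW480 (22% of 16150 genes), 2 between HCT116 and Caco2 (32%) and 3 between SW480 and Caco2 (33%). The median of all genes stood at -0.16 and -0.20 on the log2 scale in the comparisons with Caco2.

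Cofactors of SETDB1, TRIM28 and HUSH were read from a list of 30 genes, all tested. In shSETDB1 against scramble Caco2 cells 7 rose and 10 fell (median log2 -0.09, all genes 0.01), beside 24.7% of all genes called higher and 23.1% lower. TRIM24, a relative of TRIM28 that binds chromatin and nuclear receptors, had a mean of 51.2 CPM (SD 3.87, n = 3) in vehicle and 38.9 CPM (SD 5.84, n = 3) in differentiation medium. Its mean was 209 CPM (SD 10.7, n = 3) in the KRT20-negative fraction against 186 CPM (SD 3.38, n = 3) in the KRT20-positive one, and it rose 4.39-fold (log2 2.15, SE 0.07, adjusted p = 5.70e-18). ATF7IP2, the paralog of ATF7IP, rose 2.22-fold (log2 1.15, SE 0.08, adjusted p = 5.82e-11), from means of 19.8 and 19.1 CPM in the scramble to 45.2 and 41.1 CPM in the shSETDB1 groups. ATRX, a chromatin remodeller at heterochromatin, rose by 0.46 (SE 0.07), and HDAC2, a histone deacetylase of the NuRD complex, fell by 0.30 (SE 0.04). In all 4 the 6 shSETDB1 libraries stood apart from the 6 scramble libraries, as did those of 19.9% of all genes.

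Of 19 other genes of H3K9 and DNA methylation, 5 rose and 6 fell (median log2 0.03), in the same comparison with 47.8% of all genes called. DNMT3B, a de novo DNA methyltransferase, fell 2.15-fold (log2 -1.09, SE 0.08, adjusted p = 1.42e-10), LBR, a receptor of the inner nuclear membrane that binds HP1, by 0.64 (SE 0.06), and HELLS, a remodeller needed for DNA methylation, by 0.45 (SE 0.06). KDM3A, which removes methyl groups from lysine 9, rose by 0.45 (SE 0.08). SETDB2, EHMT1 and EHMT2, other writers of the mark, were not called (log2 0.03, -0.04 and 0.05).

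**Figure D5:**
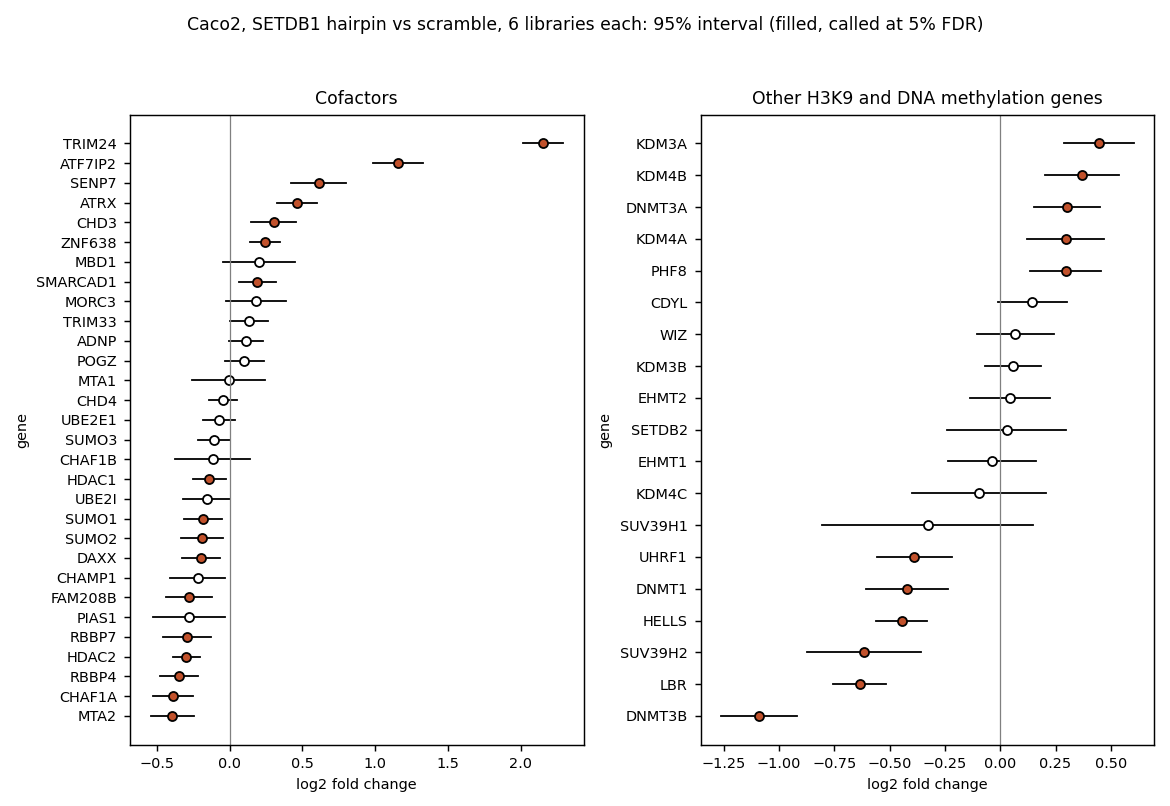
Log2 fold changes (horizontal axis) of 30 cofactor genes (left) and 19 other H3K9 and DNA methylation genes (right), named on the vertical axes, in 6 shSETDB1 against 6 scramble Caco2 libraries, with 95% intervals from edgeR and points filled where called at 5% FDR. TRIM24 (2.15) and ATF7IP2 (1.15) lie farthest to the right and DNMT3B (-1.09) farthest to the left.

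In the other lines, of 30 cofactors, 0 rose and 1 fell in HCT116 KRT-negative, 1 rose and 2 fell in HCT116 KRT-positive, 1 rose and 1 fell in SW480 KRT-negative and 0 rose and 2 fell in SW480 KRT-positive cells, each against unsorted cells, where 5.26%, 9.28%, 2.12% and 3.47% of all genes were called. TRIM24 was not called in any of them, with means of 14.9 CPM (SD 13.3) in unsorted, 14.6 (SD 7.34) in KRT-negative and 24.5 (SD 7.25) in KRT-positive HCT116 cells. DNMT1, the maintenance DNA methyltransferase, fell in both HCT116 fractions (log2 -1.28 and -1.36, adjusted p = 0.00161 and 0.000684). HELLS and LBR were called lower in both as well. In the KRT-negative fraction HELLS lost the call without KRT-negative replicate 2 or 3 or unsorted replicate 1 or 2 (adjusted p = 0.0511 to 0.0703), and LBR without KRT-negative replicate 1, 2 or 3 or unsorted replicate 1 or 2 (0.0836 to 0.135). In the KRT-positive fraction HELLS lost it without KRT-positive replicate 1, 2 or 3 or unsorted replicate 1 or 2 (0.0739 to 0.172). In differentiation medium 1 cofactor rose and 7 fell in scramble Caco2 cells, where 10.4% of all genes were called higher and 10.5% lower, TRIM24 among those that fell (log2 -0.39, SE 0.10, adjusted p = 0.00627, or 0.0535 without vehicle replicate 1).

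Over the 12 Caco2 libraries, the genes most like ATF7IP among 9521 genes (mean CPM of 10 or more) were SCRN2 (Pearson r of log2(CPM + 1) 0.991), ZNF320 (0.985), APOA2 (0.985), TTR (0.985) and GPAM (0.985). Those most like SETDB1 were REEP5 (0.9502), GRPEL1 (0.949), FAM72C (0.943), OLR1 (0.939) and DSTN (0.939). The libraries share their groups, and over the 9 HCT116 libraries r with ATF7IP was -0.19 for SCRN2 and -0.15 for ZNF320, and r with SETDB1 was -0.20 for REEP5 and 0.34 for GRPEL1.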

How the data were processed

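RNA from 30 libraries was read from deposited tables of raw counts per gene symbol, 1 table a sample. The authors' tools, per the submitters' processing notes, included edgeR and Bowtie2, with hg19 as the build, while versions, strand setting and counting rules are not given in the sources used here. Each table had 25737 lines and 24462 symbols, and the counts of 286 repeated symbols (1561 lines, none a member) were summed. Positions and promoters come from GRCh38 (GENCODE, RefSeq) and not from the build of the files.

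Library totals were 5349737 to 10221854 counts. Counts were tested within each line with edgeR 4.0.16 in R 4.3.3 (filterByExpr, TMM factors, robust quasi-likelihood fit, Benjamini-Hochberg adjustment over all genes tested), for 18 comparisons. The differences between HCT116 and SW480 used an 18-library fit and levels between lines a 30-library fit. Alternatives were DESeq2 1.42.0, RLE factors, library totals, no low-count filter, a replicate block, only the groups compared, a GC class term and leaving out each library. The tests were tried on simulated counts: of genes changed 2-fold, 96% were recovered in Caco2 (KRT20-negative against vehicle, 13968 genes), 6% in HCT116 (KRT-negative against unsorted, 13279 genes) and 2% in SW480 (likewise, 13252 genes). The simulation changed 50 genes at each fold, kept all others at 1 mean over groups, and held no GC or replicate structure. The real comparisons called more genes, so these shares need not hold for the tests reported here.

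Same-numbered libraries were taken as paired where the correlation of their deviations exceeded 0.1 for every number. This held in Caco2 for differentiation medium with vehicle (0.101 to 0.246) and for the KRT20-negative fraction with vehicle (0.104 to 0.205), with differentiation medium (0.150 to 0.209) and with the KRT20-positive fraction (0.102 to 0.188). It did not hold in the other comparisons. The labels do not state pairing, and the replicate block covered all groups of a line in each fit. All 10 members were named, with up to 4 called genes of each list by smallest adjusted p. A few other genes were named after their values were seen: 3′ neighbours of members, SETDB2, EHMT1, EHMT2, and TRIM24 in HCT116. The members and lists were chosen with earlier results of these data known.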

Additional observations from a re-analysis of the deposited data

How the results depend on the processing

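No called value changed direction under an alternative that was run. The number of members called ranged from 4 to 6 on leaving out 1 library for KRT20-positive Caco2 cells against vehicle (7 with all), the lowest without KRT20-positive replicate 1 or vehicle replicate 3. Between the Caco2 fractions it was 1 with DESeq2, 1 with the replicate block, and 0 to 1 on leaving out 1 library (1 without KRT20-negative replicate 3). For HCT116 KRT-negative against unsorted cells it was 0 with only the groups compared and 0 to 2 on leaving out 1 library (0 without unsorted replicate 1 or 2). In SW480 it was 1 with the replicate block in each fraction against unsorted cells, 1 with the GC class term in the KRT-negative fraction, and 0 to 1 in the KRT-positive fraction on leaving out 1 library. The difference between lines in the KRT-negative fraction had 1 with the GC class term. In the exact test of FAM208A the log2 difference ran from -0.24 to -0.16 on leaving out 1 library and passed the threshold in all but 1 case, -0.157 without KRT20-positive replicate 3. The replicate block changed no member's call other than those given here or beside its result. Of single-gene values, 316 lost and 23 gained a call. The cause was not tested.

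Counts over all genes called moved by more than 1.5 times. With DESeq2 they were 1211 against 698 and 1862 against 1232 (HCT116 KRT-negative and KRT-positive against unsorted), 405 against 73 (HCT116 fractions), 709 against 281 and 1204 against 460 (SW480, likewise), 404 against 59 (SW480 fractions), and 547 against 153 and 597 against 161 (differences between lines). With only the groups compared they were 307 against 570 between the Caco2 fractions and 1592 against 3561 between unsorted HCT116 and SW480 cells (1763 with the GC class term). They were 126 between the HCT116 fractions, 432, 228 and 18 in the SW480 comparisons in the order above, and 72 for the difference between lines in the KRT-positive fraction. With the replicate block the SW480 counts were 461, 793 and 179. With the GC class term they were 45 between the HCT116 fractions, 531, 887 and 224 in SW480, and 340 and 322 for the differences between lines. With no filter they were 189 and 101 between the HCT116 and the SW480 fractions. The GC class term could not be fitted with Caco2. Leaving out 1 library also moved these counts: to 297 between the Caco2 fractions (without KRT20-positive replicate 1), to 395 and 812 in HCT116 against unsorted cells (without KRT-negative or KRT-positive replicate 3), and to 15 (without KRT-negative replicate 3 or KRT-positive replicate 2) or 130 (without KRT-negative replicate 1) between the HCT116 fractions. In SW480 they went to 130 (without KRT-negative replicate 3), to 219 (without unsorted replicate 3), and between fractions to 7 (without KRT-negative replicate 3) or 98 (without KRT-positive replicate 2). The differences between lines went to 89 (without HCT116 KRT-negative replicate 3), and to 68 (without HCT116 KRT-positive replicate 3) or 294 (without SW480 KRT-positive replicate 2). These are the extremes past 1.5 times, and the shares of all genes called rest on the same counts. SETDB1 counts of 0 in 3 libraries allow up to 0.304 to 0.338 CPM.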
